A study of Mus musculus with 12 samples.

Results

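The genes of cholesterol synthesis, uptake and efflux were followed through 4 pools of whole adrenal RNA from male C57Bl/6J mice killed at 21 weeks. The set lists 36 genes, chosen by name and ordered by the step of the pathway at which they act, and each was taken at its probe set with the highest mean signal among those annotated to a single gene. 33 of the 36 had such a probe set, out of 16244 genes on the array, and all 33 were tested among 15900 genes. Acat2, Soat1 and Nr1h2 had none and were not analysed here. The ASP pool came from mice given aspartame at 46 mg/kg body weight in the drinking water, an exposure that began in utero. The CGP pool came from offspring of dams given the competitive NMDA receptor antagonist CGP 39551, at a dose set to 5 mg/kg of dam body weight. The offspring were exposed through the dam, from conception to postnatal day 28 only. The ASP+CGP pool had both exposures, and the CON pool neither. Each pool was hybridised to 3 Affymetrix Mouse Gene ST arrays, so the errors and p-values describe repeat arrays of a single RNA pool, and the variation from mouse to mouse was not measured.

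The adrenal cortex uses cholesterol as the starting material of every steroid it makes, and in rodents much of it enters from high density lipoprotein through the receptor encoded by Scarb1 and is held in the cell as cholesteryl ester. Cells also build cholesterol from acetyl-CoA through mevalonate, isopentenyl diphosphate, squalene and lanosterol. When sterol in the endoplasmic reticulum is low, SCAP carries the SREBP transcription factors to the Golgi for activation and the synthesis genes are switched on. When sterol is high, the INSIG proteins hold SCAP back, and the oxysterol-sensing LXR receptors switch on the efflux transporters encoded by Abca1 and Abcg1.

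Few of these genes passed the test in any comparison. A gene was called where limma's adjusted p was under 0.05 and the difference reached 1.4-fold. In ASP against CON, 1 of the 33 was called (Nr1h3, lower) and none was called higher, against 8.13% of all genes tested called lower and 9.81% called higher. In CGP against CON none was called, against 1.62% of all genes called higher and 0.0189% called lower. At an unadjusted p under 0.05, 7 of the 33 were higher in CGP and none lower, beside 6.57% of all genes higher and 3.18% lower. In ASP+CGP against CON, 4 were called lower (Idi1, Ebp, Insig2 and Abca1) and none higher, against 8.32% of all genes lower and 6.09% higher. ASP+CGP and ASP differed at 2 of them, Hmgcs1 and Abcg1, both lower in ASP+CGP, against 13.3% of all genes lower and 6.55% higher. The aspartame difference depended on CGP 39551 at 3 of them, Hmgcs1, Insig2 and Abcg1, all in the lower direction, against 15.5% of all genes lower and 9.02% higher. The comparisons against CON share the CON arrays.

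Most differences among the cholesterol genes were smaller than 1.4-fold. Counting every gene with an adjusted p under 0.05, whatever its size, 16 of the 33 were lower and 3 higher in ASP than in CON, against 37.7% and 17.6% of all genes tested. In CGP only Insig2 differed from CON at that threshold, and it was higher, against 2.81% of all genes higher and 0.208% lower. In ASP+CGP 24 were lower and 2 higher than in CON, against 50.4% and 22.3% of all genes. Against ASP, ASP+CGP had 15 lower and 3 higher, beside 33.1% and 30.0% of all genes. For the interaction the counts were 17 lower and 2 higher, beside 29.5% and 21.9%.

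The direction of the whole set rested on the scaling of the arrays. With the values as deposited, the median log2 difference of the 33 was -0.17 in ASP, 0.05 in CGP and -0.24 in ASP+CGP, beside medians of -0.10, 0.00 and -0.17 over all genes tested, whereas after cyclic loess between arrays the set stood at 0.00 in both ASP and ASP+CGP and at 0.05 in CGP. Cyclic loess itself moved the median of all genes by 0.11 in ASP against CON and by 0.15 in ASP+CGP against CON. In ASP+CGP 29 of the 33 lay below CON as deposited and 16 after cyclic loess. Against the median of all genes tested in that comparison, 23 of the 33 lay below as deposited and 15 after cyclic loess. The ASP+CGP arrays had a narrower range of signals than the others, with an interquartile range of 2.20 to 2.29 on the log2 scale, against 2.58 to 2.62 in CON. Among all genes with a CON signal of 9 to 10, the median difference in ASP+CGP was -0.34, and the 10 cholesterol genes in that band had a median of -0.27. In the band from 8 to 9 the 8 cholesterol genes had a median of -0.39, beside -0.26 over all genes. The share of higher calls among all calls moved as well, to 80.1% after cyclic loess against 54.7% as deposited in ASP, and to 70.2% after centring on the median and 57.6% after cyclic loess against 42.3% as deposited in ASP+CGP. In ASP+CGP against ASP that share was 43.3% after centring and 19.2% after cyclic loess, beside 32.9% as deposited, and for the interaction it was 47.3% and 23.1%, beside 36.7%.

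**Figure D1:**
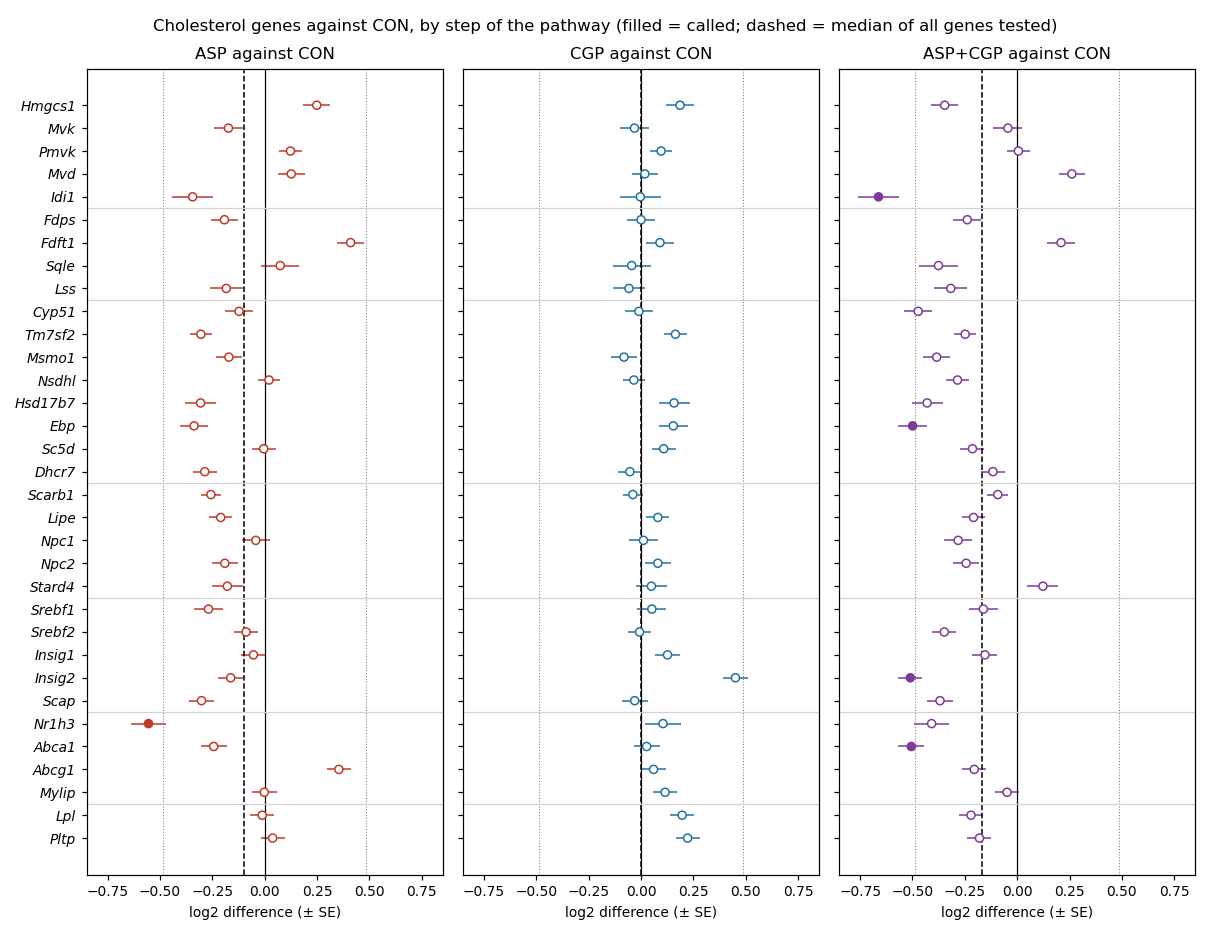
Log2 difference of each of the 33 cholesterol genes from CON (± SE from the fit, 3 arrays of 1 pool per group), in the order of the pathway with grey lines between steps. Filled points were called, dotted lines mark 1.4-fold and the dashed line is the median of all genes tested. Most points in ASP+CGP lie left of 0, as does the dashed line at -0.17.

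**Figure D2:**
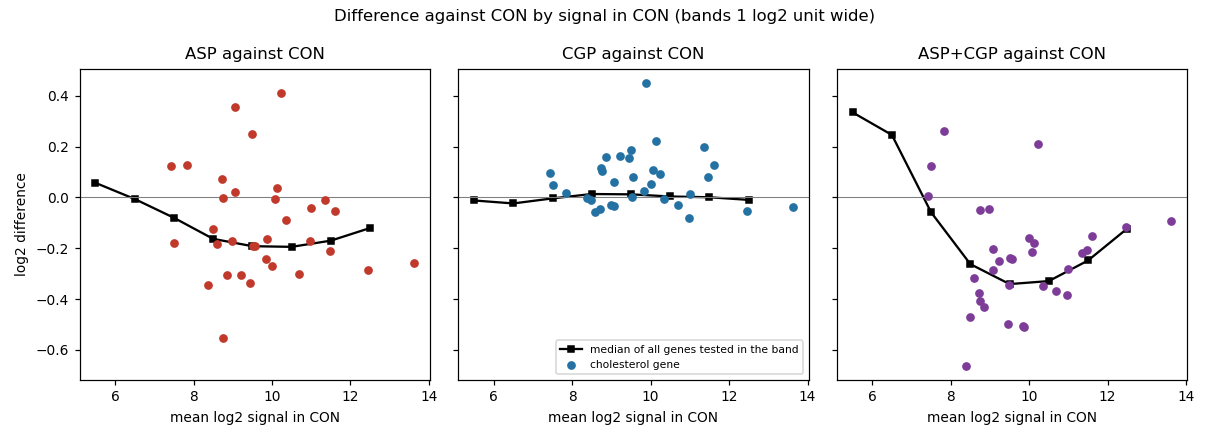
Log2 difference from CON of each cholesterol gene (coloured points) against its mean log2 signal in CON, with the median of all genes tested in bands of that signal (black squares, with the open-ended lowest and highest bands drawn next to their neighbours). In ASP+CGP the black line falls to -0.34 in the band from 9 to 10 and the coloured points lie around it.

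**Figure D3:**
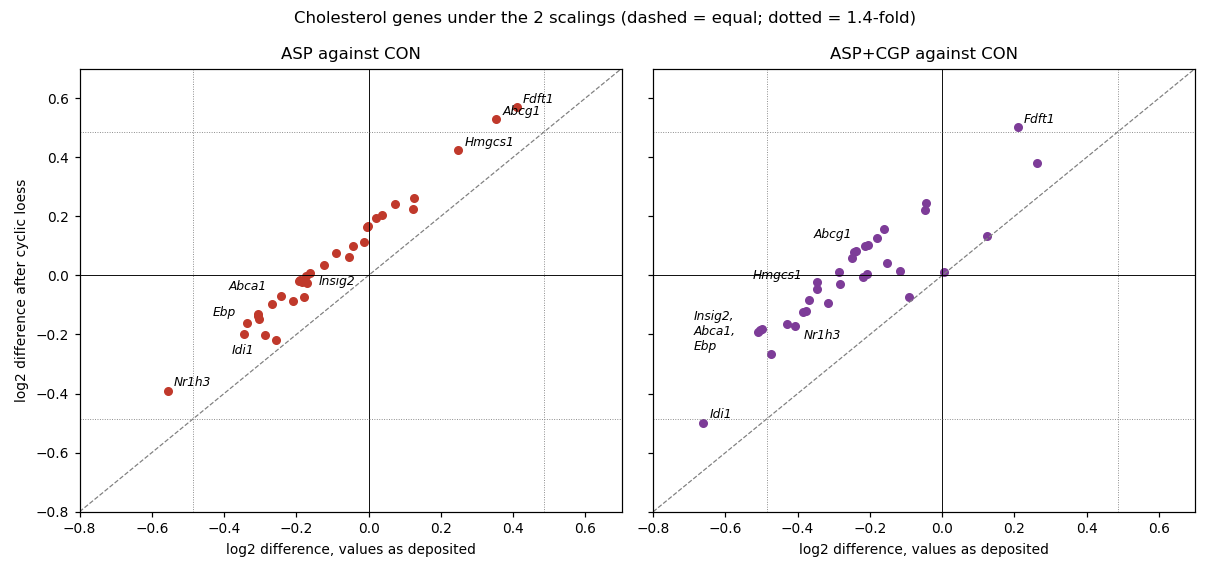
Log2 difference of the 33 cholesterol genes in ASP and ASP+CGP against CON after cyclic loess (vertical axis) and with the values as deposited (horizontal axis). Most points lie above the dashed line of equal values, so that Fdft1 and Abcg1 cross 1.4-fold in ASP and Insig2, Abca1 and Ebp fall inside it in ASP+CGP.

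Markers of other tissues moved with the groups. Of all genes tested, 8.13% were called lower and 9.81% higher in ASP against CON, with 37.7% lower at an adjusted p under 0.05. The called shares were 0.0189% lower and 1.62% higher in CGP, and 8.32% lower and 6.09% higher in ASP+CGP. The 10 adrenal cortex markers all had a mean of at least 6 in every pool, and their summed linear signal was 68440 to 71156 in ASP, 76319 to 80089 in CGP, 75000 to 77560 in ASP+CGP and 80358 to 81444 in CON. Of the 7 chromaffin cell markers tested, 2 were called lower in ASP and none in CGP or ASP+CGP against CON, and all 7 were lower in ASP at an adjusted p under 0.05, with sums of 34229 to 34843 in ASP, 41031 to 42041 in CGP, 40390 to 42059 in ASP+CGP and 43629 to 44379 in CON. All 10 neuron markers, all 9 oligodendrocyte markers measured and 7 of 8 astrocyte markers were called higher in ASP than in CON, with oligodendrocyte sums of 9781 to 10642 in ASP, 1959 to 2046 in CGP, 2073 to 2141 in ASP+CGP and 2058 to 2095 in CON. In CON 1 neuron, 2 oligodendrocyte and 1 astrocyte marker had a mean under 6. Of 10 hepatocyte markers, 7 were called lower in ASP, 7 higher in CGP and 9 lower in ASP+CGP, with sums of 19146 to 19579 in ASP, 42445 to 44021 in CGP, 15273 to 16133 in ASP+CGP and 29671 to 30573 in CON. Adipocyte sums were 26975 to 27796 in ASP, 31550 to 32538 in CGP, 25561 to 26939 in ASP+CGP and 28814 to 29550 in CON. Their part in the differences of the cholesterol genes was not tested, and in whole-gland RNA fewer cells of a type and less RNA per cell cannot be told apart.

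Arrays of 1 pool correlated at 0.989 to 0.995 over all probe sets. Between pools the correlation with CON was 0.990 to 0.993 for CGP, 0.960 to 0.978 for ASP+CGP and 0.926 to 0.934 for ASP.

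Promoters of called genes are shown because SREBP acts at short motifs close to the start of its target genes, together with the factors NF-Y and Sp1. The RefSeq table held windows of 300 bases, with 250 before and 50 after the start of transcription, for 28 of the 36 genes, and the 5 below are those of called genes with a motif in the first listed window. Their positions on GRCm38.p6 are Hmgcs1 chr13:119690101-119690400 on the plus strand, Idi1 chr13:8885356-8885655 on the plus strand, Ebp chrX:8193463-8193762 on the minus strand, Insig2 chr1:121332540-121332839 on the minus strand and Abca1 chr4:53159846-53160145 on the minus strand. Insig2 has 3 listed windows, of which the first is printed. Letters run in the direction of transcription, and capitals mark TCACNCCA (an SREBP motif), CCAAT (NF-Y) and GGGCGG (Sp1) on either strand. No 2 different motifs overlapped in the windows of the cholesterol genes. Of the called genes not printed, Nr1h3 has 2 listed windows that hold none of these motifs, and Abcg1 has no window.
Hmgcs1: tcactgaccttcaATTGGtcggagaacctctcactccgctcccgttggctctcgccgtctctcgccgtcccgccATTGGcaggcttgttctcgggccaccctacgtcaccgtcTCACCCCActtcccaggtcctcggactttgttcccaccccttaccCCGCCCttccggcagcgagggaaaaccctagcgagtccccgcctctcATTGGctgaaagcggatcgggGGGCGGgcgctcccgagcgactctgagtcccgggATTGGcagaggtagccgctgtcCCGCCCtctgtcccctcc
Idi1: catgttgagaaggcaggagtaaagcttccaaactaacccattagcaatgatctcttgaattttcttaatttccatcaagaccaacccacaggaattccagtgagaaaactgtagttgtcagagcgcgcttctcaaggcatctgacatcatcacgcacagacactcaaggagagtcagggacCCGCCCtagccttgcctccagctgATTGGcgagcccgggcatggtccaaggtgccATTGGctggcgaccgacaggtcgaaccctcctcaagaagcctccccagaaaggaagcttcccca
Ebp: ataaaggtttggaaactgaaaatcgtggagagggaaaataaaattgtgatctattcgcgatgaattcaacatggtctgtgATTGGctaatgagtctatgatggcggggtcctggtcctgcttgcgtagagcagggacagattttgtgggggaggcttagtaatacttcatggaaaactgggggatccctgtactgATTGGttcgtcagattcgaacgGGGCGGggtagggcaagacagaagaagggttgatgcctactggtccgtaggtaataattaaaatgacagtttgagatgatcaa
Insig2: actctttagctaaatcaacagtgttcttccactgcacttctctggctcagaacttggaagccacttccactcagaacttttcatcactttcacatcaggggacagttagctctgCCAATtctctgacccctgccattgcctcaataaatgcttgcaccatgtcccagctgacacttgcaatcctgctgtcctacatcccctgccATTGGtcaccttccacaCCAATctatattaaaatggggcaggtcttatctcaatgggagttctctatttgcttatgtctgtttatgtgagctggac
Abca1: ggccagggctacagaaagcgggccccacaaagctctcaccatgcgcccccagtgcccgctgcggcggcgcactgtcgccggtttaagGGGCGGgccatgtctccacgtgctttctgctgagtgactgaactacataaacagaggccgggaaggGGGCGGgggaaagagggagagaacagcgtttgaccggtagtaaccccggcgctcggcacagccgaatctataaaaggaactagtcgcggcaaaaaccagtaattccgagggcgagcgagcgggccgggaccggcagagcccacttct

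Among the windows of the 15 synthesis enzymes in the table, 14 of 18 held CCAAT (77.8%) and 15 of 18 held GGGCGG (83.3%), beside 37.4% and 35.7% of all 32851 windows. For the other 13 cholesterol genes in the table, 9 of 20 windows held CCAAT (45%) and 14 of 20 held GGGCGG (70%). TCACNCCA was in 2 of the 18 (11.1%), those of Hmgcs1 and Msmo1, beside 4.36% of all windows, and outside the synthesis enzymes it was in the window of Srebf2. The printed Hmgcs1 window holds it at base -137 from the start. These are matches of letters and do not show that a factor binds there.

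**Figure D4:**
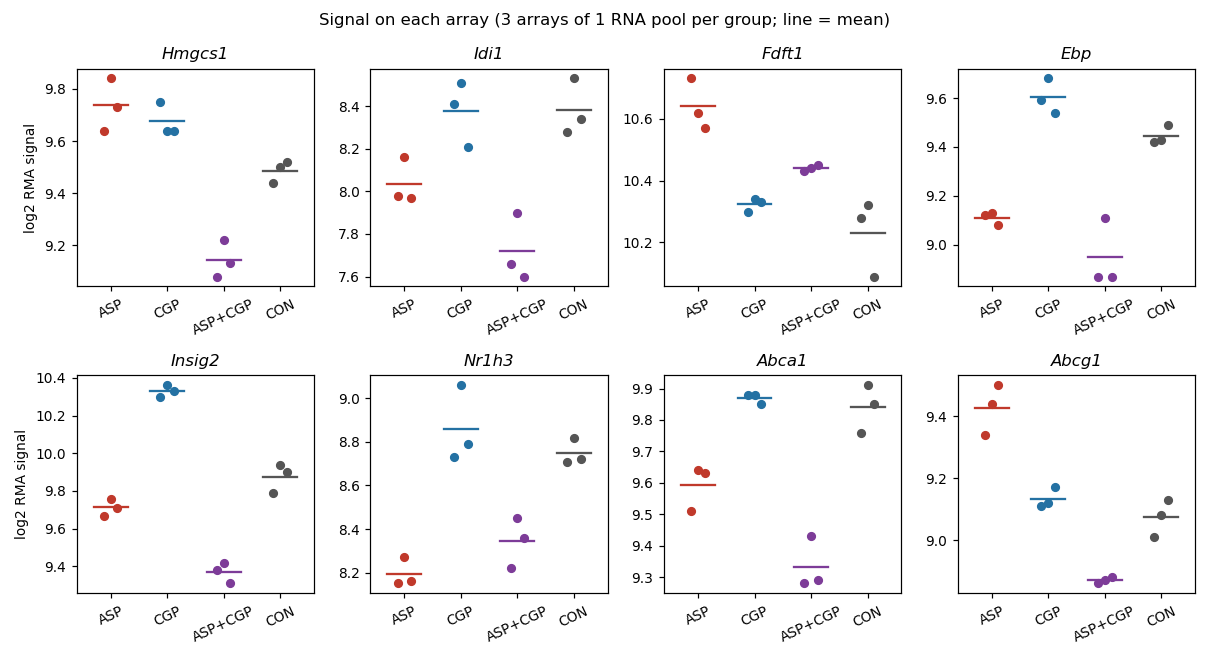
Log2 RMA signal of the 7 called cholesterol genes and of Fdft1 on each array (points, 3 arrays of 1 pool per group, line at the mean), with a vertical scale of its own for each gene. By their means, Hmgcs1 and Abcg1 are highest in ASP and lowest in ASP+CGP, Insig2 is highest in CGP and Nr1h3 is lowest in ASP.

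Between acetyl-CoA and isopentenyl diphosphate, 5 enzymes were measured and they did not move together. Hmgcs1, the cytosolic HMG-CoA synthase at the entry to the mevalonate pathway, read 9.64, 9.84 and 9.73 on the ASP arrays, 9.75, 9.64 and 9.64 in CGP, 9.08, 9.22 and 9.13 in ASP+CGP and 9.44, 9.50 and 9.52 in CON (log2 signal). Every ASP and CGP array lay above every CON array, and every ASP+CGP array lay below. The Hmgcs1 difference from CON was 0.25 ± 0.06 (SE) in ASP (adjusted p = 0.00454), 0.19 ± 0.06 in CGP (adjusted p = 0.236) and -0.35 ± 0.06 in ASP+CGP (adjusted p = 3.63e-04), none of them reaching 1.4-fold. It fell in ASP+CGP against ASP, by 0.59 ± 0.06 on the log2 scale (adjusted p = 2.41e-06), although after cyclic loess that difference was -0.45 and no longer reached 1.4-fold, and the difference of ASP+CGP from CON was -0.02.

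Idi1, the isomerase that balances isopentenyl and dimethylallyl diphosphate, was lower than CON in both aspartame pools as deposited. It read 7.98, 8.16 and 7.97 in ASP, 8.41, 8.51 and 8.21 in CGP, 7.66, 7.90 and 7.60 in ASP+CGP and 8.28, 8.53 and 8.34 in CON, so that both aspartame pools lay below CON with no overlap. It fell in ASP+CGP, with a log2 difference from CON of -0.66 ± 0.10 (adjusted p = 6.28e-05), and was the only cholesterol gene of that comparison to stay past the call both after centring on the median and after cyclic loess (-0.50). In ASP the Idi1 difference was -0.34 ± 0.10 (adjusted p = 0.00756) as deposited and -0.20 after cyclic loess (adjusted p = 0.0746), and in CGP it was close to 0 (adjusted p = 0.997). A second, dimmer probe set for Idi1 gave -0.58 in ASP+CGP and -0.39 in ASP.

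Mvd, the decarboxylase that makes isopentenyl diphosphate, was above CON in ASP+CGP on every array. It read 8.16, 8.06 and 8.07 in ASP+CGP and 7.84, 7.90 and 7.76 in CON, a difference of 0.26 ± 0.06 (adjusted p = 0.00225). It is 1 of 2 cholesterol genes higher in ASP+CGP at that threshold, the other being Fdft1. The mevalonate kinase Mvk and the phosphomevalonate kinase Pmvk stayed between -0.17 and 0.12 in all 3 comparisons with CON.

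From isopentenyl diphosphate to lanosterol, Fdft1 and Sqle, which act one after the other, parted. Fdft1, the squalene synthase that commits the pathway to sterols, read 10.73, 10.62 and 10.57 in ASP, 10.30, 10.34 and 10.33 in CGP, 10.43, 10.44 and 10.45 in ASP+CGP and 10.28, 10.32 and 10.09 in CON. Both aspartame pools lay above every CON array. The Fdft1 difference was 0.41 ± 0.07 in ASP (adjusted p = 1.04e-04) and 0.21 ± 0.07 in ASP+CGP (adjusted p = 0.0112), both short of 1.4-fold as deposited and past it after cyclic loess (0.57 and 0.50). A second probe set for Fdft1 gave 0.27 in ASP and 0.18 in ASP+CGP.

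Sqle, the squalene epoxidase that follows it, read 8.64, 8.90 and 8.84 in ASP, 8.63, 8.75 and 8.66 in CGP, 8.37, 8.52 and 8.15 in ASP+CGP and 8.64, 8.71 and 8.82 in CON. Only the ASP+CGP arrays stood apart, with a difference from ASP of -0.45 ± 0.09 (adjusted p = 7.39e-04) and from CON of -0.38 ± 0.09 (adjusted p = 0.0023). Sqle reached 1.4-fold against ASP when ASP array 1 (-0.53) or ASP+CGP array 2 (-0.54) was left out. The farnesyl diphosphate synthase Fdps and the lanosterol synthase Lss were lower in ASP+CGP, by log2 differences of -0.24 and -0.32 (adjusted p = 0.00528 and 0.00245), where cyclic loess left 2 of the 4 enzymes of this step above CON and 2 below.

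All 8 enzymes measured between lanosterol and cholesterol were lower in ASP+CGP than in CON as deposited, while after cyclic loess 4 were lower and 4 higher. Of these 8, 7 lay below the median of all genes tested as deposited (-0.17), and 4 after cyclic loess. Their median difference was -0.33 in ASP+CGP, -0.23 in ASP and 0.05 in CGP, and 1 of the 8 was called, in ASP+CGP. That was Ebp, the sterol isomerase, which read 9.12, 9.13 and 9.08 in ASP, 9.59, 9.68 and 9.54 in CGP, 8.87, 9.11 and 8.87 in ASP+CGP and 9.42, 9.43 and 9.49 in CON. Both aspartame pools lay below CON and every CGP array lay above it. Ebp fell in ASP+CGP, by 0.50 ± 0.07 on the log2 scale (adjusted p = 3.96e-05). The call was lost after centring on the median (-0.43), after cyclic loess (-0.18) and without ASP+CGP array 1 (-0.46), ASP+CGP array 3 (-0.46) or CON array 3 (-0.48).

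Cyp51, the lanosterol demethylase, stopped just short of the call. It read 7.90, 8.04 and 8.12 in ASP+CGP and 8.47, 8.46 and 8.54 in CON, a log2 difference of -0.47 ± 0.07 (adjusted p = 4.59e-05), and it passed when ASP+CGP array 3 (-0.52) or CON array 2 (-0.49) was left out. In ASP the Cyp51 difference was -0.12 and did not pass the threshold (adjusted p = 0.133). Hsd17b7, a ketosteroid reductase, and Msmo1, the methylsterol monooxygenase, were at -0.43 and -0.38 in ASP+CGP (adjusted p = 1.88e-04 and 1.38e-04) and at -0.31 and -0.17 in ASP.

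The remaining 4 enzymes of that stretch were ordered differently in the aspartame pools. Tm7sf2, a sterol reductase, was at -0.31 in ASP (adjusted p = 2.29e-04) and -0.25 in ASP+CGP. Nsdhl and Sc5d, a dehydrogenase and a desaturase, did not pass the threshold in ASP (adjusted p = 0.773 and 0.951) and at -0.28 and -0.21 in ASP+CGP. Dhcr7, the reductase that yields cholesterol, read 12.15, 12.14 and 12.24 in ASP, 12.40, 12.37 and 12.28 in ASP+CGP and 12.44, 12.49 and 12.46 in CON. It was lower than CON in ASP, at -0.29 ± 0.06 (adjusted p = 6.84e-04), and higher in ASP+CGP than in ASP, at 0.17 ± 0.06 (adjusted p = 0.0187), which held the same sign after cyclic loess (0.21).

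No gene of uptake, ester release or transport within the cell was called in any of the 5 comparisons, while at an unadjusted p under 0.05 limma gave 4 of the 5 lower in ASP, none in CGP and 3 lower in ASP+CGP, beside 40.9%, 3.18% and 51.8% of all genes lower. After cyclic loess 1 of the 5 was lower than CON in ASP and none in ASP+CGP at an adjusted p under 0.05. Scarb1 read 13.34, 13.36 and 13.40 in ASP, 13.57, 13.58 and 13.60 in CGP, 13.54, 13.54 and 13.50 in ASP+CGP and 13.62, 13.64 and 13.60 in CON. The ASP arrays formed the lowest group, with a Scarb1 difference from CON of -0.26 ± 0.05 (adjusted p = 4.61e-04), and ASP+CGP stood above ASP by 0.16 ± 0.05 (adjusted p = 0.00973). Both kept their sign after cyclic loess (-0.22 and 0.15). Of the 10 adrenal cortex markers, 6 had an adjusted p under 0.05 in ASP against CON, all lower, beside 37.7% of all genes lower. Of these, 4 were called, beside 8.13% of all genes called lower. In ASP+CGP against ASP 2 of the 10 had an adjusted p under 0.05, both higher, beside 30.0% of all genes higher. None of the 10 was called there.

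Lipe, the hormone-sensitive lipase that frees cholesterol from its esters, was at -0.21 in both ASP and ASP+CGP (adjusted p = 0.00477 and 0.00397). The lysosomal cholesterol exporters Npc1 and Npc2 were at -0.04 and -0.19 in ASP and at -0.28 and -0.24 in ASP+CGP. Stard4, a sterol carrier of the cytosol, read 7.29, 7.23 and 7.44 in ASP, 7.65, 7.70 and 7.52 in ASP+CGP and 7.52, 7.37 and 7.60 in CON, and was higher in ASP+CGP than in ASP by 0.30 ± 0.07 (adjusted p = 0.00281). Of these 5 genes it alone lay above CON in ASP+CGP as deposited, at 0.12 (adjusted p = 0.146), whereas after cyclic loess 3 of the 5 did.

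Insig2 had the widest swing among the 5 genes of sterol sensing. It read 9.67, 9.76 and 9.71 in ASP, 10.30, 10.36 and 10.33 in CGP, 9.38, 9.42 and 9.31 in ASP+CGP and 9.79, 9.94 and 9.90 in CON, and no 2 pools overlapped. In CGP the difference was 0.45 ± 0.06 (adjusted p = 1.46e-04), a 1.37-fold excess over CON that stopped just short of the call. Insig2 fell in ASP+CGP, by 0.51 ± 0.06 on the log2 scale (adjusted p = 1.28e-05), a call that was lost after centring on the median (-0.44), after cyclic loess (-0.19) and without ASP+CGP array 3 (-0.48) or CON array 2 (-0.48). In ASP the difference was -0.16 ± 0.06 (adjusted p = 0.0278) as deposited and 0.01 after cyclic loess. The 4 pools held the same order in the summed hepatocyte markers, highest in CGP and lowest in ASP+CGP.

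Insig1, which acts like Insig2, had differences of the same sign and smaller size. Insig1 was at -0.05 in ASP, 0.13 in CGP and -0.15 in ASP+CGP, where it read 11.41, 11.55 and 11.42 against 11.53, 11.63 and 11.68 in CON (adjusted p = 0.0314), and the 2 groups overlapped. Srebf2, the SREBP that favours the sterol genes, was at -0.09 in ASP (adjusted p = 0.202) and -0.35 in ASP+CGP (adjusted p = 1.33e-04), but at -0.05 in ASP+CGP after cyclic loess. Srebf1, which favours fatty acid genes, was lower in ASP at -0.27 (adjusted p = 0.00449), and at -0.16 in ASP+CGP (adjusted p = 0.0505). Scap was at -0.30 in ASP and -0.37 in ASP+CGP (adjusted p = 7.67e-04 and 1.61e-04). The median of the 5 genes was -0.16 in ASP as deposited but 0.01 after cyclic loess, and -0.35 in ASP+CGP but -0.05 after it.

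Among the 4 LXR and efflux genes measured, Nr1h3 and Abca1 were lower than CON in both aspartame pools as deposited and Abcg1 parted from them in ASP. Nr1h3, which encodes LXR alpha, read 8.15, 8.27 and 8.16 in ASP, 8.73, 9.06 and 8.79 in CGP, 8.22, 8.45 and 8.36 in ASP+CGP and 8.71, 8.82 and 8.72 in CON. Both aspartame pools lay below all other arrays. Nr1h3 fell in ASP, by 0.56 ± 0.08 on the log2 scale (adjusted p = 6.17e-05), and was the only cholesterol gene called against CON there, a call that held whichever array was left out but was lost after cyclic loess (-0.39). In ASP+CGP the difference was -0.41 ± 0.08 (adjusted p = 7.48e-04), which after cyclic loess was -0.17. Over all genes tested, 8.13% were called lower in ASP, 8.32% lower in ASP+CGP and 1.62% higher in CGP. Of 8 macrophage markers, whose cells also express Nr1h3, 3 were called lower in ASP and none in ASP+CGP. Their summed signals were 6730 to 6966 in ASP, 7616 to 7907 in ASP+CGP and 8742 to 9023 in CON. Of 6 endothelial markers, 4 were called lower in ASP and 2 in ASP+CGP, with summed signals of 3370 to 3561 in ASP, 3577 to 3962 in ASP+CGP and 4816 to 4922 in CON and a median difference of -0.56 in ASP. Of 10 hepatocyte markers, 7 were called lower in ASP, 9 lower in ASP+CGP and 7 higher in CGP, where Nr1h3 was at 0.11 (adjusted p = 0.814). Of 8 adipocyte markers, 1 was called lower in ASP and 1 in ASP+CGP. The part of these cells in the Nr1h3 differences was not tested.

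Abcg1, an exporter of cholesterol to high density lipoprotein and an LXR target, ran against its receptor in ASP. It read 9.34, 9.44 and 9.50 in ASP, 9.11, 9.12 and 9.17 in CGP, 8.86, 8.87 and 8.88 in ASP+CGP and 9.01, 9.08 and 9.13 in CON. Every ASP array lay above every other array and every ASP+CGP array lay below. The Abcg1 difference was 0.35 ± 0.06 in ASP (adjusted p = 1.11e-04), short of 1.4-fold as deposited and called higher after cyclic loess (0.53), and -0.20 ± 0.06 in ASP+CGP (adjusted p = 0.00569), where cyclic loess turned it to 0.10. Abcg1 fell in ASP+CGP against ASP, by 0.56 ± 0.06 on the log2 scale (adjusted p = 1.32e-06), or by 0.43 after cyclic loess, below 1.4-fold. Summed oligodendrocyte, neuron and astrocyte markers were highest in ASP as well.

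Abca1, the other LXR-controlled exporter, loads apolipoprotein with cholesterol. It read 9.51, 9.64 and 9.63 in ASP, 9.88, 9.88 and 9.85 in CGP, 9.28, 9.43 and 9.29 in ASP+CGP and 9.76, 9.91 and 9.85 in CON, with both aspartame pools below CON. Abca1 fell in ASP+CGP, by 0.51 ± 0.06 on the log2 scale (adjusted p = 2.10e-05), and in ASP the difference was -0.24 ± 0.06 (adjusted p = 0.0041). The ASP+CGP call was lost after centring on the median (-0.44), after cyclic loess (-0.18) and without ASP+CGP array 1 (-0.48), ASP+CGP array 3 (-0.49) or CON array 2 (-0.47). Mylip, a ubiquitin ligase for lipoprotein receptors and also an LXR target, lay between -0.05 and 0.12 in the 3 comparisons with CON.

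Lpl and Pltp, a lipase and a phospholipid carrier of the lipoproteins, were both above CON in CGP and both below it in ASP+CGP as deposited. Neither was called. Lpl read 11.30, 11.42 and 11.30 in ASP, 11.57, 11.57 and 11.50 in CGP, 11.18, 11.15 and 11.07 in ASP+CGP and 11.32, 11.40 and 11.33 in CON. Pltp read 10.11, 10.16 and 10.24 in ASP, 10.38, 10.38 and 10.31 in CGP, 9.93, 10.01 and 9.93 in ASP+CGP and 10.09, 10.19 and 10.12 in CON. For both genes every CGP array lay above CON and every ASP+CGP array below it. In CGP the differences were 0.20 and 0.22 (adjusted p = 0.107 and 0.0516), and in ASP+CGP they were -0.22 and -0.18 (adjusted p = 0.00351 and 0.0117), where cyclic loess left Lpl near 0 (adjusted p = 0.942) and moved Pltp to 0.13. Summed adipocyte markers were also highest in CGP and lowest in ASP+CGP.

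The 2 treatments were crossed, so the aspartame difference could be read with and without CGP 39551, in pairs of pools that share no arrays. Aspartame lay below its own comparison pool at 25 of the 33 genes without CGP 39551 (ASP against CON) and at 30 with it (ASP+CGP against CGP), beside 65.0% and 65.9% of all genes tested, whereas after cyclic loess it lay below at 17 and 22 of the 33, beside 47.9% and 53.4% of all genes. As deposited, 24 were below in both. 6 were above without CGP 39551 and below with it, Stard4 was the reverse, and Mvd and Fdft1 were above in both. For Hmgcs1 the aspartame difference was -0.53 with CGP 39551 and 0.25 without it, an interaction of -0.78 ± 0.09 (adjusted p = 7.88e-06). For Abcg1 it was -0.27 with CGP 39551 and 0.35 without it, an interaction of -0.62 ± 0.08 (adjusted p = 2.57e-05) that after cyclic loess was -0.47 and no longer called. For Insig2 it was -0.96 with CGP 39551 and -0.16 without it, an interaction of -0.80 ± 0.08 (adjusted p = 1.97e-06), and for Hmgcs1 and Insig2 the call held after cyclic loess (-0.62 and -0.64).

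Below 1.4-fold, the interaction was also negative for Pltp (-0.44, adjusted p = 5.03e-04), Lpl (-0.41, adjusted p = 9.77e-04) and Sqle (-0.41, adjusted p = 0.0179). It was positive for Dhcr7 (0.22, adjusted p = 0.0335) and Scarb1 (0.20, adjusted p = 0.0254). Both kept that sign after cyclic loess, at 0.26 and 0.17. The median of the 33 was -0.23 as deposited and -0.13 after cyclic loess, beside -0.03 over all genes in both.

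**Figure D5:**
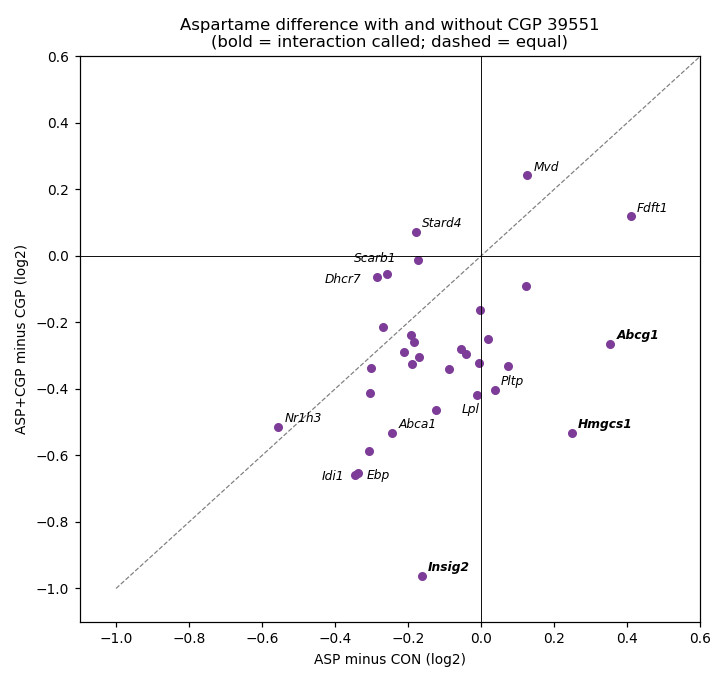
Aspartame difference of each of the 33 cholesterol genes with CGP 39551 (ASP+CGP minus CGP, vertical axis) and without it (ASP minus CON, horizontal axis), in log2 units of the deposited signal. Bold names had a called interaction. Points below the dashed line had a lower aspartame difference with CGP 39551, as 26 of the 33 did as deposited and 21 after cyclic loess. The median interaction over all genes tested was -0.03 in both.

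The neighbouring genes of lipid metabolism were taken as a fatty acid list and a list of other sterol handling genes. None of the 10 fatty acid genes that SREBP controls was called in any comparison between pools. At an unadjusted p under 0.05, limma gave 4 of them higher and 4 lower in ASP, beside 18.9% and 40.9% of all genes. None passed in CGP, beside 6.57% higher and 3.18% lower. In ASP+CGP against CON 2 were higher and 5 lower, beside 23.2% and 51.8%. In ASP+CGP against ASP 1 was higher and 4 lower, beside 32.0% and 35.0%. For the interaction, Acaca (acetyl-CoA carboxylase) and Scd2 (a fatty acid desaturase) were called lower, at -0.57 and -0.49, beside 15.5% of all genes. Of 24 other sterol handling genes tested, 1 was called higher and 2 lower in ASP, 4 higher in CGP, and 1 higher and 5 lower in ASP+CGP, beside 9.81% of all genes higher and 8.13% lower in ASP, 1.62% higher in CGP, and 6.09% higher and 8.32% lower in ASP+CGP. In ASP+CGP against ASP 5 were called lower (Cyp46a1, Lcat, Cyp7b1, Abcg4 at -0.51 and Scp2), beside 13.3% of all genes, and 6 had a called negative interaction (Lcat, Cyp46a1, Scp2, Cyp7b1, Cyp27a1 and Osbp), beside 15.5%. Lcat, the plasma enzyme that esterifies cholesterol on lipoproteins, read 9.50, 9.56 and 9.50 in ASP, 10.68, 10.74 and 10.72 in CGP, 8.44, 8.90 and 8.52 in ASP+CGP and 10.01, 10.02 and 9.94 in CON. It rose in CGP by 0.72 ± 0.09 and fell in ASP+CGP by 1.37 ± 0.09 on the log2 scale (adjusted p = 1.16e-04 and 7.68e-08).

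Scp2, a sterol carrier, and the sterol hydroxylases Cyp27a1 and Cyp7b1 rose with Lcat in CGP, by 0.78, 0.51 and 0.53, and fell in ASP+CGP, by 1.17, 0.52 and 0.64. Scp2 and Cyp27a1 also fell in ASP, by 0.67 and 0.50. The hepatocyte markers were called in the same directions, as given above. Cyp46a1, a cholesterol hydroxylase known from brain neurons, read 9.37, 9.34 and 9.41 in ASP, 7.34, 7.14 and 7.30 in CGP, 7.70, 7.62 and 7.75 in ASP+CGP and 7.24, 7.40 and 7.27 in CON, and its rise of 2.07 ± 0.07 in ASP (adjusted p = 2.38e-12) stood beside the 10 of 10 neuron markers. Osbp, an oxysterol-binding protein, fell in ASP+CGP by 0.67, and Npc1l1, a sterol importer of the gut, rose there by 0.54.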

How the data were processed

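The deposited log2 signals of 12 Affymetrix Mouse Gene ST arrays were used as given. Per the labels and the study's methods, the authors pooled RNA within each group, hybridised each pool in triplicate and summarised and normalised the arrays by RMA in Partek. Probe sets that stay under 6 on every array are not in the deposited table. Of 26533 probe sets, 17710 had 1 gene in the platform annotation, 1077 several and 7746 none, and only the first kind was used. Each gene was read from the brightest of its single-gene probe sets, and 344 genes whose group means all lay below 6 were left untested. limma 3.58.1 (lmFit and eBayes, R 4.3.3) fitted a mean per group to all 12 arrays, with Benjamini-Hochberg adjustment over 15900 genes and a fold of at least 1.4, the thresholds of the study's methods. Differences are in log2 units with the SE of the fit. The number of arrays limits the precision. All 36 listed genes were accounted for. Per-array values were given for genes called in any comparison, the largest differences in each step and those that departed from their step, and called genes of the 2 neighbouring lists were named. The genes and lists were chosen with earlier results of these data known. The fit was also run on data simulated for ASP against CON over 15900 genes. It called 55 of 67 genes changed 1.5-fold, 67 of 67 changed 2-fold, 66 of 66 changed 3-fold and 0 of 15700 unchanged genes. The deposited data had 2851 calls in that comparison, so the simulation does not give the rate of false calls there. Alternatives covered the filter, the scaling, the arrays fitted, the moderation, the replicate block, the fold, the probe set and leaving out each array. Promoter windows and letters came from RefSeq (GRCm38.p6).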

Additional observations from a re-analysis of the deposited data

Results flagged for a closer look

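3 of the 33 cholesterol genes were flagged because the aspartame difference was not the same with and without CGP 39551. This was read from the interaction term of the fit across all genes. All 3 were called lower, beside 15.5% of all genes tested called lower and 9.02% called higher. A called interaction was therefore not particular to these genes. Insig2 had an interaction of -0.80 (adjusted p = 1.97e-06), Hmgcs1 of -0.78 (adjusted p = 7.88e-06) and Abcg1 of -0.62 (adjusted p = 2.57e-05). As deposited, for Hmgcs1 and Abcg1 every ASP array lay above, and every ASP+CGP array below, all CON arrays. For Insig2 every CGP array lay above CON and the arrays of both aspartame pools lay below it. After cyclic loess the interaction was -0.62 for Hmgcs1 and -0.64 for Insig2, both called, and -0.47 for Abcg1, no longer called, and the difference of ASP+CGP from CON was -0.02 for Hmgcs1 and 0.10 for Abcg1 and that of ASP from CON was 0.01 for Insig2. Single outlying arrays were examined only by leaving out each array in turn, which kept all 3 of these interaction calls.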

How the results depend on the processing

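As deposited, 1 of the 33 cholesterol genes was called in ASP, 0 in CGP and 4 in ASP+CGP against CON. For ASP+CGP against ASP 2 were called, and for the interaction 3. Over all 15900 genes tested, in the same order, 2851, 260, 2292, 3162 and 3906 were called. With no fold minimum the cholesterol counts became 19, 1, 26, 18 and 19, beside 8788, 479, 11556, 10027 and 8175 of all genes. A fold of at least 1.8 gave 0 in all 5, beside 1076, 92, 191, 1088 and 1323 of all genes. Cyclic loess gave 2 calls in ASP (Fdft1 and Abcg1, both higher, with Nr1h3 lost) and 2 in ASP+CGP (Fdft1 higher, Idi1 lower). It gave 0 in ASP+CGP against ASP and 2 for the interaction (Abcg1 lost). The calls over all 15816 genes tested were 2420, 1179, 2552 and 3156 in that order. Centring each array on its median left 1 call in ASP+CGP (Idi1), beside 2215 of all 16012 genes tested. Leaving out each array in turn gave 1 call in ASP, 0 in CGP, 2 to 4 in ASP+CGP, 2 to 3 in ASP+CGP against ASP and 3 to 4 for the interaction. The replicate block gave 1, 0, 4, 2 and 3 calls, beside 2851, 259, 2292, 3162 and 3905 over all genes. Arrays of the same number in different pools deviated together with correlations of -0.15 to 0.38, mean 0.11 and 8 of 18 above 0.1. For arrays of other numbers the correlations were -0.39 to 0.28, mean -0.05 and 9 of 36 above 0.1. Whether the numbers pair the arrays was not tested. No call changed under the other alternatives run (both other filters, only the arrays compared, moderation with trend and the mean of all probe sets), and no called difference changed sign under any alternative. The cause of these changes was not tested. With 1 RNA pool per group, differences between mice cannot be told apart from differences between pools.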
